A study of Mus musculus with 12 samples.

Results

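The subject here is the nuclear-encoded part of respiratory complexes II, III and IV in mouse liver, as 38 listed subunits and assembly factors taken by their gene symbol. Of these, 37 had an array feature of their own, out of 30746 genes measured that way. The missing gene is Sco2, whose feature also carries another gene's symbol and was not used. The measured genes are 6 of complex II, 11 of complex III, and 11 subunits and 9 assembly factors of complex IV, each represented by a single feature. Expression was compared between livers of 6 mice without the nucleoside transporter ENT3 (knockout, KO, ENT3 -/- in the labels), which is encoded by Slc29a3, and of 6 wild-type mice (WT, ENT3 +/+). Each genotype had 3 males and 3 females, read from the letter M or F in the titles beside the statement that gender was matched. All 12 mice are labelled C57BL6/J, were killed at 12 weeks and are untreated as far as the labels say. Mice are named by their animal number: KO males 18, 19 and 39, KO females 13, 40 and 69, WT males 17, 23 and 33, and WT females 25, 27 and 38. The labels do not say how the allele was made, which exons it lacks or in which cells, nor whether the mice were littermates. RNA came from liver tissue and not from sorted cells, so fewer cells of a type and less RNA per cell cannot be told apart.

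Complex II is succinate dehydrogenase, an enzyme of the tricarboxylic acid (TCA) cycle in the inner mitochondrial membrane that oxidises succinate to fumarate and hands the electrons to ubiquinone. Complex III takes electrons from ubiquinol and passes them to cytochrome c, and complex IV passes them on to oxygen. Both of these move protons across the membrane, whereas complex II does not. All subunits of complex II are encoded in the nucleus, while the catalytic core of complex IV and cytochrome b of complex III come from mitochondrial DNA and are not among the genes described. Assembly factors help to build the enzymes, and some of them insert the flavin, iron-sulphur clusters, haem and copper that carry the electrons. Most are not part of the finished enzymes. Cox7a2l, described below, is counted among those of complex IV. In liver, the chain supplies the ATP that gluconeogenesis and the urea cycle consume.

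Values are deposited log2 signals, and a difference is KO minus WT on that scale with the standard error (SE) of a limma fit to 6 mice per genotype. The number of arrays limits the precision. Array medians lay between 3.76 and 3.89 and arrays of 1 group correlated with each other at 0.987 to 0.995 over features, a description only. The targeted gene Slc29a3 averaged 4.13 ± 0.04 in KO and 5.07 ± 0.18 in WT livers (SD, n = 6 each; limma adjusted p = 0.000324), with no overlap. Poly-A spikes, bacterial transcripts added before labelling, averaged 5.44 ± 0.36 on KO and 6.30 ± 0.32 on WT arrays (SD, n = 6 each). By an exact two-sided permutation of genotype inside each sex p was 0.005, which is the lowest value possible with 400 arrangements, and 0.0125 after Benjamini-Hochberg adjustment over 5 array measures. The median of the negative control features was higher on KO arrays by 0.14 and that of the positive controls lower, at -0.39 (exact permutation p = 0.005 and 0.01). The array median over all features was also higher on KO arrays, by 0.07 (exact permutation p = 0.015). Of 19 measured hepatocyte markers 13, with albumin among them, lay at the scale's shared ceiling on every array, and none of the 37 genes reached it. A pair of livers stood apart. WT female 27 had a brown fat marker, Ucp1, at 11.78, against at most 4.36 on the other 11 arrays. Skeletal muscle markers were raised in KO female 40 and WT female 27. The log2 of their summed signal was 10.09 in KO female 40 and 9.76 in WT female 27, against at most 7.62 elsewhere. Results below are therefore also given without these 2 mice where that changes them.

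Over both sexes, 14 of the 37 genes fell in KO livers, 1 rose and 22 did not pass the test, whereas among all 65956 features 4.47 percent were called lower and 5.28 percent higher. The falls were 7 of 11 genes in complex III, 3 of 6 in complex II and 4 of 9 assembly factors of complex IV. None of the 11 subunits of complex IV fell in the limma test, although 2 had an unadjusted p under 0.05 in that direction, and Cox7b rose. Cox6c and Cox7c among these 11 had 1 repeated value on 9 of 12 arrays, which leaves little room for a difference. A closer background is the 4530 protein-coding genes whose mean lay above the negative controls, of which 29.8 percent were lower and 6.87 percent higher. By that measure 27 of the 37 genes were bright, and 10 of these (37.0 percent) were lower, which is near this background. The median difference was -0.36 over the 37 genes, 0.05 over all features and -0.20 over the bright protein-coding genes. By complex, the median was -0.32 in complex II, -0.60 in complex III, -0.12 in the complex IV subunits and -0.29 in its assembly factors. After quantile normalization these medians were -0.39, -0.64, -0.42 and -0.36, so the smaller median of the complex IV subunits depended on the scale. All 6 KO values lay below all 6 WT values for 9 genes and above them for none, against 1.94 percent below and 1.97 percent above among all features and 12.3 and 3.11 percent among the bright protein-coding genes. Without KO female 40 and WT female 27, 10 genes were lower and 0 higher in the limma test (2 at an unadjusted p under 0.05), against 4.02 percent lower and 3.91 percent higher of all features. Of these 10 genes, 9 were also lower with all 12 mice. Sdhc, Sdhd, Uqcrc2, Uqcr11, Bcs1l, Ttc19, Cox15 and Surf1 were called in all 14 fits that left out 1 or 2 mice.

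**Figure D1:**
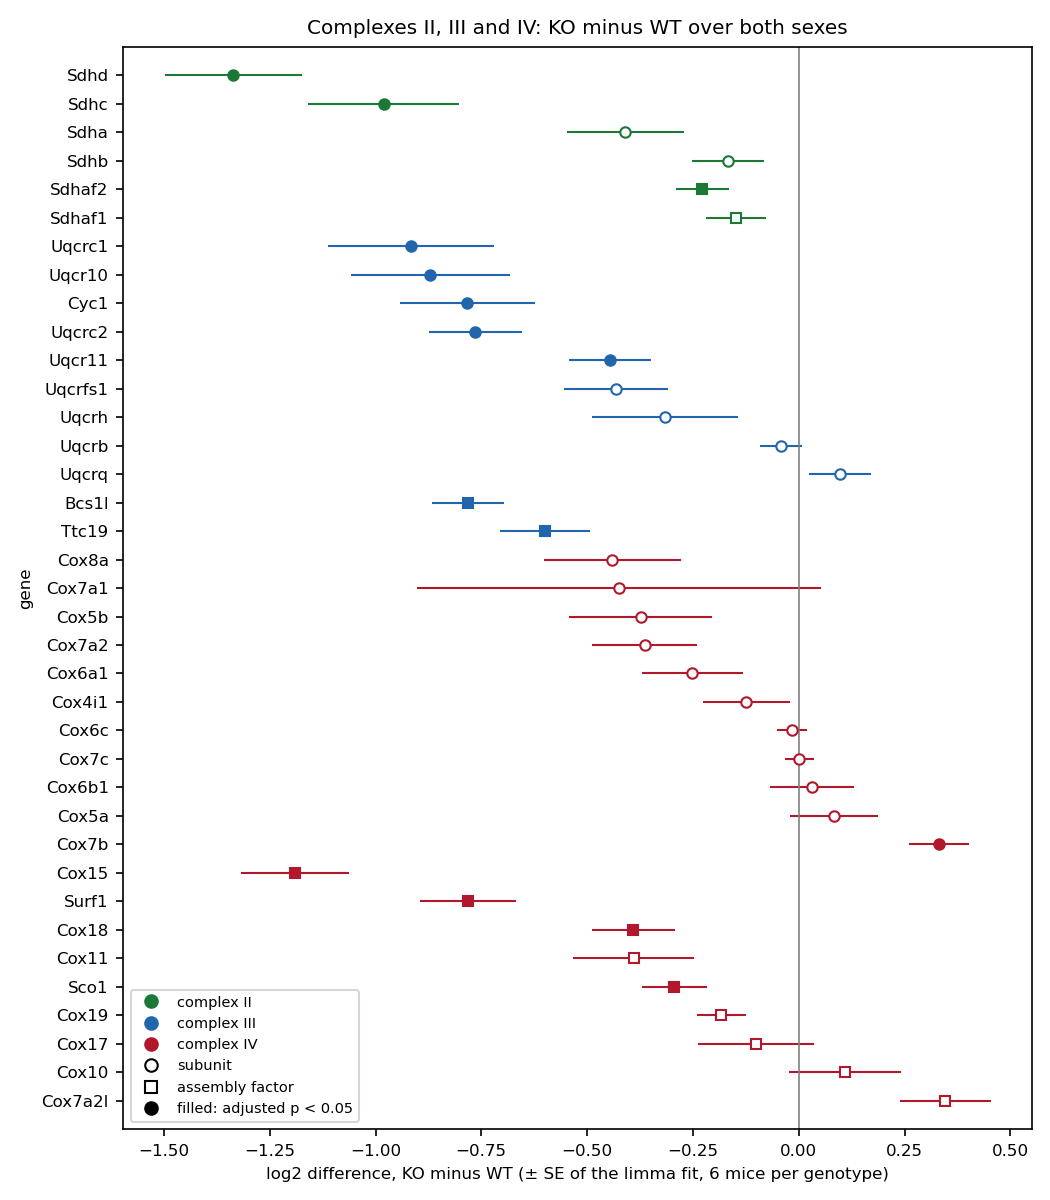
Log2 difference of KO minus WT over both sexes for the 37 genes (x axis, with the SE of the limma fit as bars, 6 mice per genotype), grouped by complex from top to bottom. Circles are subunits and squares assembly factors. Filled symbols have an adjusted p under 0.05. They run from -1.34 for Sdhd to -0.23 for Sdhaf2, with Cox7b alone on the right at 0.33.

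In complex II the membrane anchor fell and the catalytic head did not pass the test over all features. Sdhd, the small anchor subunit that with Sdhc holds the haem and the ubiquinone site, had log2 signals of 11.94 to 12.79 (median 12.59) in KO livers, against 13.49 to 14.22 (median 13.66) in WT livers. No KO liver reached the lowest WT liver, and the difference of -1.34 ± 0.16 (adjusted p = 0.00148) is a KO signal 0.396 times that of WT on the deposited scale. Sdhc, the other anchor, had 9.51 to 9.99 (median 9.86) in KO livers, against 10.22 to 11.15 (median 10.92) in WT livers, again without overlap. It fell, at -0.98 ± 0.18 (adjusted p = 0.00788). Sdha, the flavoprotein that oxidises succinate, overlapped between genotypes at 11.11 to 11.82 (median 11.41) in KO livers, against 11.55 to 12.18 (median 11.85) in WT livers, a difference of -0.41 ± 0.14 (adjusted p = 0.0989). Sdhb, the iron-sulphur subunit that links the flavin to the anchor, had 10.20 to 10.66 (median 10.34) in KO livers, against 10.45 to 10.72 (median 10.52) in WT livers and differed by -0.17 ± 0.09 (adjusted p = 0.283). Neither of these head subunits was called with all 12 mice or without KO female 40 and WT female 27, but Sdha passed once dim features were left out of the test (adjusted p = 0.0422). Of the assembly factors, Sdhaf2, which attaches the flavin to Sdha, fell slightly, with 4.09 to 4.36 (median 4.30) in KO livers, against 4.40 to 4.62 (median 4.50) in WT livers and a difference of -0.23 ± 0.06 (adjusted p = 0.0460). Its groups did not overlap, but all 12 values lay within the negative control range and the call was lost in 10 of the 12 fits without 1 mouse (adjusted p up to 0.109). Sdhaf1, which helps to insert the iron-sulphur clusters of Sdhb, also lay within that range and differed by -0.15 ± 0.07 (adjusted p = 0.244).

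The promoters of Sdhd and Sdhaf1 are shown because these genes had the largest and the smallest absolute difference within complex II. Both are RefSeq windows of GRCm38.p6 from 250 bases before to 50 after the gene start, read 5′ to 3′ on the strand of the gene, at chr9:50603800-50604099 (- strand) and chr7:30322326-30322625 (- strand). Capitals mark matches on either strand to 4 motifs searched in all windows, namely the consensus of NRF1, ETS factors such as GABPA (CCGGAAG), ERR alpha (TCAAGGTCA) and YY1 (AAGATGGCG).
Sdhd: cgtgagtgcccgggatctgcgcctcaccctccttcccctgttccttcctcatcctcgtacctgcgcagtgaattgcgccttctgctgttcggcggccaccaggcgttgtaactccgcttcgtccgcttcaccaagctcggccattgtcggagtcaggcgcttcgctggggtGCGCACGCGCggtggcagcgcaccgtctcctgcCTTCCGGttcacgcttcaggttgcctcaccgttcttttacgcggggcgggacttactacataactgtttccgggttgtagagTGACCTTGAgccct
Sdhaf1: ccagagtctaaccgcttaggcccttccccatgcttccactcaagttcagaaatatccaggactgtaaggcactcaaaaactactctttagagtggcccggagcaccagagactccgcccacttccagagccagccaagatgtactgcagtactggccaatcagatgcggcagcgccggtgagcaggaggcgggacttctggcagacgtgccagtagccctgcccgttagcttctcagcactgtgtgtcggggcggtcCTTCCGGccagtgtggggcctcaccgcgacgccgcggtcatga
Sdhd held an NRF1 match 79 bases before the start, an ETS match 46 bases before it and an ERR alpha match on the reverse strand 36 bases after it, whereas Sdhaf1 held a single ETS match 7 bases after the start.

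In complex III the core proteins, cytochrome c1, several small subunits and both assembly factors fell. Uqcrc1, a core protein on the matrix side, had log2 signals of 12.22 to 13.65 (median 12.77) in KO livers, against 13.18 to 14.16 (median 13.87) in WT livers. KO male 19 (13.65) lay within the WT range, and the other KO livers lay below it. The difference was -0.92 ± 0.20 (adjusted p = 0.0163), and it was -0.81 (adjusted p = 0.0757) without KO female 40 and WT female 27, which lost the call. Uqcrc2, the other core protein, had 12.30 to 13.16 (median 12.51) in KO livers, against 13.10 to 13.60 (median 13.34) in WT livers and fell, at -0.76 ± 0.11 (adjusted p = 0.00267), with KO male 19 again inside the WT range. Cyc1, cytochrome c1, which hands electrons to the soluble cytochrome c, had 9.62 to 10.62 (median 9.89) in KO livers, against 10.44 to 11.04 (median 10.83) in WT livers. Its difference was -0.78 ± 0.16 (adjusted p = 0.0133), and without KO female 40 and WT female 27 it was -0.77 (adjusted p = 0.0560). Uqcrfs1, the Rieske iron-sulphur protein that moves electrons from ubiquinol to cytochrome c1, lay close to the threshold with 6.50 to 7.04 (median 6.64) in KO livers, against 6.83 to 7.40 (median 7.08) in WT livers and a difference of -0.43 ± 0.12 (adjusted p = 0.0548), and it passed without KO male 19 or without WT female 25 (lowest adjusted p = 0.0192). It also passed after median centring, without the sex term, without dim features and without KO male 19 and WT female 38 (adjusted p = 0.0217 to 0.0488).

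The smaller complex III subunits, which carry no electrons and surround the core, moved unequally. Uqcr10 had 8.23 to 8.80 (median 8.64) in KO livers, against 8.96 to 10.01 (median 9.34) in WT livers, with no overlap, and fell, at -0.87 ± 0.19 (adjusted p = 0.0170). Without KO male 19 and WT female 38 its adjusted p was 0.0507. Uqcr11 had 7.17 to 7.33 (median 7.30) in KO livers, against 7.51 to 8.08 (median 7.70) in WT livers, also without overlap, and differed by -0.45 ± 0.10 (adjusted p = 0.0166). Uqcrh, the hinge protein that helps cytochrome c1 to meet cytochrome c, overlapped widely at 12.44 to 13.07 (median 12.72) in KO livers, against 12.68 to 13.57 (median 12.95) in WT livers and was not called (-0.32 ± 0.17, adjusted p = 0.314). Uqcrq, a subunit next to cytochrome b, had 11.69 to 11.95 (median 11.74) in KO livers, against 11.42 to 11.81 (median 11.68) in WT livers and differed by 0.10 ± 0.07 (adjusted p = 0.475). Uqcrb, which contacts the ubiquinone site, had a deposited value of 15.59 on 10 of 12 arrays, to the last digit, and differed by -0.04 ± 0.05 (adjusted p = 0.678). After quantile normalization, which changes each array's copy of that value, it was called lower, at -0.44 (adjusted p = 0.0107). Such repeats occurred in 437 of the 65956 features on 9 or more arrays, 316 of them at the ceiling, and how they arose was not tested.

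Bcs1l, the ATPase that carries the folded Rieske protein across the inner membrane, had 5.52 to 6.16 (median 5.73) in KO livers, against 6.30 to 6.93 (median 6.52) in WT livers. No KO value reached the lowest WT value, and the difference was -0.78 ± 0.09 (adjusted p = 0.000929), the smallest adjusted p in complex III. All 6 KO values lay within the negative control range, so the size of the fall is not exact. Ttc19, which clears fragments of the Rieske protein after it is built in, had 6.32 to 6.73 (median 6.55) in KO livers, against 6.79 to 7.59 (median 7.13) in WT livers and fell, at -0.60 ± 0.11 (adjusted p = 0.00712), without overlap. It lay within the negative control range on 5 of 12 arrays.

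The Uqcrc1 promoter is shown as that of the largest fall in complex III, from the same RefSeq table, at chr9:108936398-108936697 (+ strand), with capitals as above. Uqcrb, at the other end of the range, had no window in the table.
Uqcrc1: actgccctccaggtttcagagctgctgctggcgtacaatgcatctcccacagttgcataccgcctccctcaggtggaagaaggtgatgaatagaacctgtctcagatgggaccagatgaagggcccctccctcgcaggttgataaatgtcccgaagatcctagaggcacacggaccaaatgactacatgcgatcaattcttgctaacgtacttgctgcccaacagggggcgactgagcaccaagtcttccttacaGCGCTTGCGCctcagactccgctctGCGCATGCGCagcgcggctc
It held 2 NRF1 matches after the start, at 5 and 30 bases, of which the one at 30 is a palindrome that matches on both strands, and no ETS, ERR alpha or YY1 match.

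**Figure D2:**
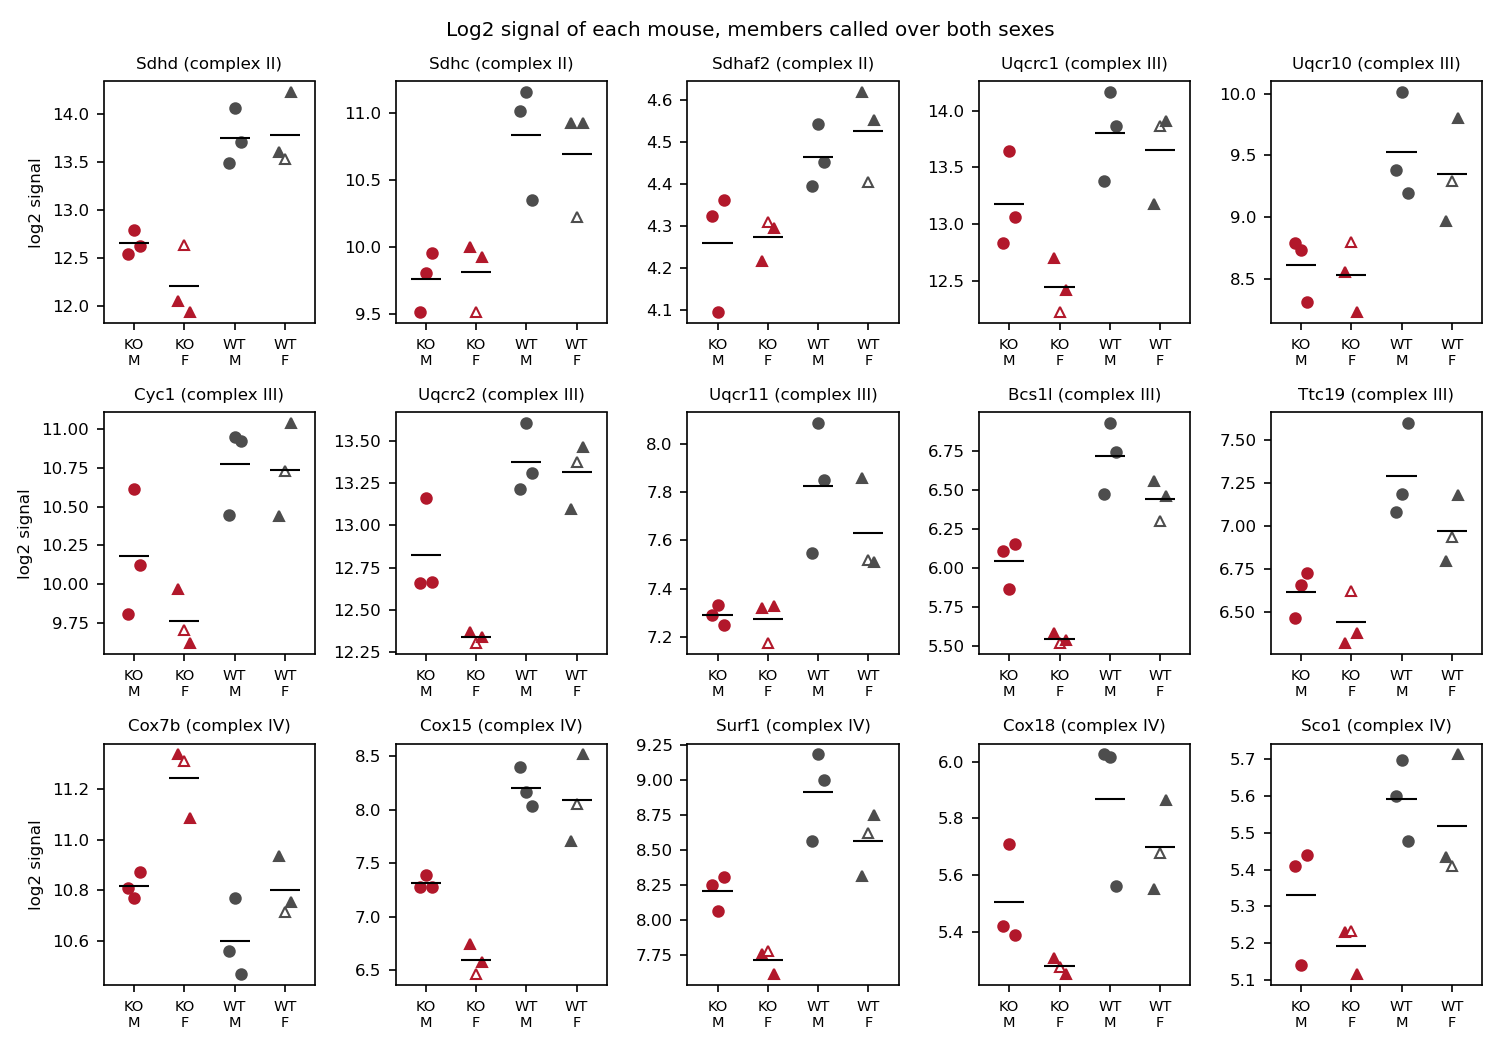
Log2 signal of each mouse (y axis, a scale for each panel) for the 15 genes called over both sexes, with KO males, KO females, WT males and WT females from left to right, circles for males, triangles for females and bars for group means. Open symbols are KO female 40 and WT female 27. For Sdhd the KO livers run from 11.94 to 12.79 and the WT livers from 13.49 to 14.22, whereas for Uqcrc1 and Cyc1 KO male 19 lies among the WT livers.

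On the deposited scale Cox7b was the only structural subunit of complex IV to pass the test. After quantile normalization Cox6a1 (-0.69, adjusted p = 0.0171), Cox8a (-0.71, adjusted p = 0.0232) and Cox7a2 (-0.56, adjusted p = 0.00374) were also called, all lower. Cox7b, a small X-linked subunit, had 10.77 to 11.34 (median 10.98) in KO livers, against 10.47 to 10.93 (median 10.73) in WT livers and rose by 0.33 ± 0.07 (adjusted p = 0.0164). The groups overlapped, and it was 0.29 (adjusted p = 0.0747) without KO female 40 and WT female 27. Cox4i1, the ubiquitous form of the subunit through which ATP acts on the enzyme, had 7.19 to 7.35 (median 7.25) in KO livers, against 7.09 to 7.75 (median 7.31) in WT livers and differed by -0.12 ± 0.10 (adjusted p = 0.529). Cox5a, its neighbour in early assembly, had 11.28 to 12.12 (median 11.44) in KO livers, against 11.34 to 11.49 (median 11.44) in WT livers and differed by 0.08 ± 0.10 (adjusted p = 0.697). The highest of these, 12.12, came from KO female 40, whose muscle markers were raised and whose summed macrophage markers were the highest (log2 18.69). WT female 27, also with raised muscle markers, had 11.49. Without these 2 mice the difference was -0.01 (adjusted p = 0.940). Cox5b, which binds zinc on the matrix side, had 12.32 to 12.90 (median 12.65) in KO livers, against 12.49 to 13.37 (median 13.05) in WT livers and differed by -0.37 ± 0.17 (adjusted p = 0.220). Cox6a1, the form of its subunit found outside muscle, had 15.64 to 16.27 (median 16.11) in KO livers, against 16.00 to 16.65 (median 16.25) in WT livers and a difference of -0.25 ± 0.12 (adjusted p = 0.243). Cox6b1, which faces the intermembrane space, had 16.21 to 16.56 (median 16.29) in KO livers, against 16.02 to 16.61 (median 16.32) in WT livers and differed by 0.03 ± 0.10 (adjusted p = 0.891), at -0.42 after quantile normalization and -0.04 after median centring. Cox8a, a small subunit in its ubiquitous form, had 13.28 to 13.89 (median 13.79) in KO livers, against 13.87 to 14.83 (median 13.99) in WT livers and differed by -0.44 ± 0.16 (adjusted p = 0.127). Cox6c and Cox7c, further small subunits, each had an identical value on 9 of 12 arrays, 5.57 for Cox6c and 6.52 for Cox7c, and so could show little difference on that scale. Among the 9 subunits with values that varied, the differences ran from -0.44 for Cox8a to 0.33 for Cox7b.

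The Cox7a family holds a contractile-tissue form, Cox7a1, a form made in liver, Cox7a2, and the related Cox7a2l, which joins complexes III and IV into supercomplexes and of which C57BL/6 mice are known to carry a shortened protein. Cox7a1 had 4.80 to 6.76 (median 5.21) in KO livers, against 4.83 to 8.30 (median 5.49) in WT livers, a difference of -0.42 ± 0.48 (adjusted p = 0.658). Its highest values were 6.76 in KO female 40 and 8.30 in WT female 27, the livers with raised muscle markers. WT female 27 also had the brown fat marker Ucp1 at 11.78. In the livers other than these 2, the 10 values lay between 4.80 and 5.75, within the negative control range. Without those 2 mice Cox7a1 differed by -0.20 (adjusted p = 0.529). Cox7a2 had 13.11 to 13.50 (median 13.38) in KO livers, against 13.38 to 14.04 (median 13.66) in WT livers and differed by -0.36 ± 0.12 (adjusted p = 0.102), or -0.48 (adjusted p = 0.0552) without the same mice. Beside the quantile-normalized values, it passed after median centring (adjusted p = 0.0476) and without dim features (adjusted p = 0.0433). Cox7a2l had 9.69 to 10.22 (median 9.99) in KO livers, against 9.43 to 9.90 (median 9.58) in WT livers, a difference of 0.35 ± 0.11 (adjusted p = 0.0741) that passed the test without KO male 19 or without WT male 23 (lowest adjusted p = 0.0475). With all 12 mice it passed after quantile normalization (0.39, adjusted p = 0.0169) and without dim features (adjusted p = 0.0301), but not on the deposited values over all features. The promoters of the family and of Cox7c, the complex IV gene of the smallest absolute difference, are shown to compare the forms, and none of the 4 motifs was found in them. They are RefSeq windows of GRCm38.p6 at chr7:30183921-30184220 (+ strand), chr9:79759804-79760103 (- strand), chr17:83514284-83514583 (- strand) and chr13:86046746-86047045 (- strand).
Cox7a1: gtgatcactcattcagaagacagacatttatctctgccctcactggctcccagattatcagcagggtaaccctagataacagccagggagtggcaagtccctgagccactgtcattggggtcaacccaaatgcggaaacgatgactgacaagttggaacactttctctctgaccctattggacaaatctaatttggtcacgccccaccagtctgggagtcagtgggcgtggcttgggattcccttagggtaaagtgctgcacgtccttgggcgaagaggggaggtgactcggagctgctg
Cox7a2: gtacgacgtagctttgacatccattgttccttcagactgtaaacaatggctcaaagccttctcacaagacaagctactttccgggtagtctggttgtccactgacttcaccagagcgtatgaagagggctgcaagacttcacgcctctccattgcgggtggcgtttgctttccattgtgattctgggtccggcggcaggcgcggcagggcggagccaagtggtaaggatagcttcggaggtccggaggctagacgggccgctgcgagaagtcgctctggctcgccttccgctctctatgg
Cox7a2l: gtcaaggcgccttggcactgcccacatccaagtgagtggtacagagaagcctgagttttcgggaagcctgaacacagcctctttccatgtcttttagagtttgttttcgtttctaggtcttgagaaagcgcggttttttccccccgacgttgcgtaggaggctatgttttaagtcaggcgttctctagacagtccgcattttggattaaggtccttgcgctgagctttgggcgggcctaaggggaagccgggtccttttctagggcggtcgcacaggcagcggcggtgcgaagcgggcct
Cox7c: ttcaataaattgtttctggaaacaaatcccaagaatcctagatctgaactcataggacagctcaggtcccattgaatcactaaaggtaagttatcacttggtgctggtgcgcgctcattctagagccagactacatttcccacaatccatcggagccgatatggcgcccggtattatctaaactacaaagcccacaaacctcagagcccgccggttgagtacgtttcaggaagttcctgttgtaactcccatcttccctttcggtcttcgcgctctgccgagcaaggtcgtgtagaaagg
No match says only that these letters do not occur in the window.

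Among the complex IV assembly factors Cox15, Surf1, Cox18 and Sco1 fell, Cox15 and Surf1 by the larger amounts. Cox15, the enzyme that makes haem A for the catalytic subunit, had 6.47 to 7.40 (median 7.01) in KO livers, against 7.71 to 8.52 (median 8.11) in WT livers. The groups did not overlap, the difference was -1.19 ± 0.13 (adjusted p = 0.000851), and the KO signal was 0.438 times that of WT. Cox10, which makes the haem O that Cox15 uses, had 5.91 to 6.52 (median 6.04) in KO livers, against 5.64 to 6.31 (median 6.00) in WT livers and differed by 0.11 ± 0.13 (adjusted p = 0.681). It lay within the negative control range on 10 of 12 arrays, so that its low signal limits what can be seen. Surf1, needed in the early assembly of the catalytic subunit and mutated in a form of Leigh syndrome, had 7.61 to 8.31 (median 7.92) in KO livers, against 8.32 to 9.19 (median 8.69) in WT livers, without overlap. It fell, at -0.78 ± 0.11 (adjusted p = 0.00274).

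Cox18, which inserts the tail of the copper-binding subunit into the membrane, had 5.25 to 5.71 (median 5.35) in KO livers, against 5.55 to 6.03 (median 5.77) in WT livers and differed by -0.39 ± 0.10 (adjusted p = 0.0332). Sco1, which delivers copper to that subunit, had 5.12 to 5.44 (median 5.23) in KO livers, against 5.41 to 5.71 (median 5.54) in WT livers and differed by -0.29 ± 0.08 (adjusted p = 0.0396). Both lay within the negative control range on all 12 arrays and overlapped between genotypes, and their calls were lost in 9 and 8 of the 12 fits without 1 mouse. Cox17, the chaperone that hands copper to Sco1 and Cox11, had 5.19 to 5.85 (median 5.36) in KO livers, against 5.11 to 6.02 (median 5.46) in WT livers and differed by -0.10 ± 0.14 (adjusted p = 0.719). Cox11, which brings copper to the catalytic subunit, had 6.45 to 7.62 (median 7.10) in KO livers, against 7.15 to 7.83 (median 7.46) in WT livers and a difference of -0.39 ± 0.14 (adjusted p = 0.127), wider in females (-0.63) than in males (-0.15) without a called interaction. Cox19, another protein of the copper route, had 4.71 to 4.97 (median 4.78) in KO livers, against 4.77 to 5.08 (median 5.02) in WT livers and differed by -0.18 ± 0.06 (adjusted p = 0.0778). It was called without KO female 40 and WT female 27, at -0.25 (adjusted p = 0.0203), after quantile normalization (adjusted p = 0.00737) and after median centring (adjusted p = 0.0221). Cox17 and Cox19 also lay within the negative control range on all 12 arrays.

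The Cox15 promoter, that of the largest fall in complex IV, lies at chr19:43752951-43753250 (- strand) of GRCm38.p6 in the RefSeq table, with capitals as above.
Cox15: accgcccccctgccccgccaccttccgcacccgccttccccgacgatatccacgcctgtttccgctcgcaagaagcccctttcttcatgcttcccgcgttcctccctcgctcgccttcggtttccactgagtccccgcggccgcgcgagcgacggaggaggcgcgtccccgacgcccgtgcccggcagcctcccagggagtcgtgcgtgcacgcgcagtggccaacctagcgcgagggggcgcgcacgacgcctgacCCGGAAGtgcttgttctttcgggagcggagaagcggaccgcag
It held an ETS match on the forward strand 7 bases after the start. Of the 28 genes with a window, 14 held an ETS match (50 percent), against 9.93 percent of all 27025 genes with a window and 12.9 percent of the protein-coding ones. A gene was counted if any of its windows matched. Of the genes that fell, 7 of 10 held it, among them Sdhd, Sdhaf2, Uqcr11, Bcs1l, Cox15, Sco1 and Surf1, and of those that did not fall, 7 of 18 held it. NRF1 was matched in 4 of the 28 (Sdha, Sdhd, Uqcrc1 and Cox6a1), 14.3 percent against 5.19 percent of all genes with a window and 7.17 percent of the protein-coding ones. ERR alpha was matched in Sdhd only, 3.57 percent against 0.466 and 0.377 percent, and YY1 in Cox10 only, 3.57 percent against 1.64 and 2.14 percent. The motifs were chosen after the values were seen, and the matches describe the sequence and not binding.

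Within each sex, 1 gene fell in KO males and 7 fell and 1 rose in KO females. Among all features, 0.506 percent were lower and 0.579 percent higher in males, and 3.06 percent were lower and 3.13 percent higher in females, so the shares of called features differed between the sexes as well. Among the bright protein-coding genes, 4.33 percent were lower and 0.265 percent higher in males, and 22.6 percent were lower and 6.11 percent higher in females. Bcs1l was the gene called in males, with values of 6.11, 5.87 and 6.16 in KO males, against 6.48, 6.93 and 6.75 in WT males, a difference of -0.67 ± 0.12 (adjusted p = 0.0335). In females it had 5.59, 5.52 and 5.54 in KO, against 6.56, 6.30 and 6.46 in WT, a difference of -0.89 ± 0.12 (adjusted p = 0.00375). It was thus lower in both sexes without overlap, although the call in males was lost in 7 of the 12 fits without 1 mouse. Cox15 had 6.75, 6.47 and 6.58 in KO females, against 7.71, 8.06 and 8.52 in WT females, a difference of -1.49 ± 0.18 (adjusted p = 0.00243). In males it had 7.28, 7.40 and 7.28 in KO, against 8.40, 8.17 and 8.04 in WT, a difference of -0.88 ± 0.18 (adjusted p = 0.0520). The difference in females minus that in males was -0.61, and Cox15 was the only gene with an unadjusted p under 0.05 for the interaction of genotype and sex. It did not pass over all features (limma adjusted p = 0.719).

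Sdhd had 12.06, 12.63 and 11.94 in KO females, against 13.60, 13.53 and 14.22 in WT females, a difference of -1.57 ± 0.23 (adjusted p = 0.00526), and its difference in males was -1.10 ± 0.23 (adjusted p = 0.0595). Uqcrc2 differed by -0.98 ± 0.15 (adjusted p = 0.00719) in females and -0.55 ± 0.15 (adjusted p = 0.146) in males. Uqcrc1 differed by -1.21 ± 0.28 (adjusted p = 0.0325) in females and -0.62 ± 0.28 (adjusted p = 0.382) in males. Cyc1 differed by -0.97 ± 0.23 (adjusted p = 0.0342) in females and -0.59 ± 0.23 (adjusted p = 0.296) in males. Surf1 differed by -0.85 ± 0.16 (adjusted p = 0.0153) in females and -0.71 ± 0.16 (adjusted p = 0.0768) in males. Cox7b rose in females, with 11.34, 11.31 and 11.09 in KO, against 10.93, 10.72 and 10.75 in WT, a difference of 0.44 ± 0.10 (adjusted p = 0.0310), and in males it differed by 0.22 ± 0.10 (adjusted p = 0.403). Of the 14 genes that fell over both sexes, 10 had the wider difference in females, while Sdhc, Uqcr10, Uqcr11 and Ttc19 had it in males. The difference in females minus that in males had a median of -0.06 over the 37 genes. That median was -0.08 over the bright protein-coding genes and 0.03 over all features. The interaction was called for none of the 37 genes (1 at an unadjusted p under 0.05) and for 0.00152 percent of all features, so no difference between the sexes was shown. Without KO female 40 and WT female 27 the counts were 0 lower in males (15 at an unadjusted p under 0.05), 3 lower in females and 0 higher in females (1 unadjusted). In that fit the shares of all features were counted over both sexes only, at 4.02 percent lower and 3.91 percent higher. Whether the smaller counts within each sex are particular to these genes was therefore not tested.

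**Figure D3:**
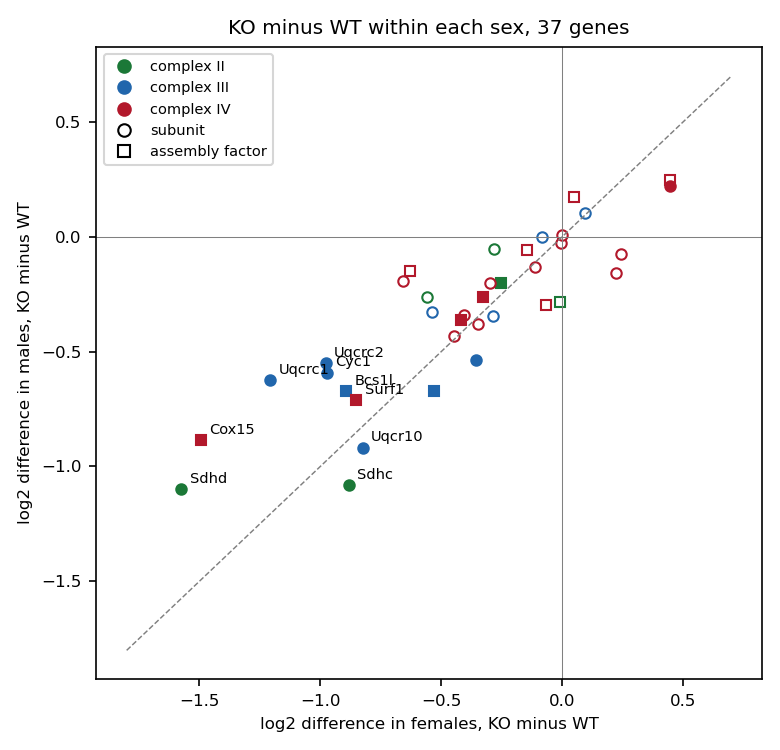
Log2 difference of KO minus WT in females (x axis) and in males (y axis) for the 37 genes. The dashed line marks equal differences, circles are subunits, squares assembly factors, and filled symbols genes called over both sexes. Most filled points lie in the lower left, Cox15 and Sdhd at -1.49 and -1.57 in females and -0.88 and -1.10 in males, and Cox7b lies at the upper right with 0.44 and 0.22.

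Averaged over the 37 genes and taken from the WT mean of the same sex, KO males 18, 19 and 39 lay at -0.39, -0.25 and -0.34 and KO females 13, 40 and 69 at -0.38, -0.33 and -0.50, while WT livers lay between -0.10 and 0.17. The same mean over the 4530 bright protein-coding genes lay between -0.32 and -0.07 in KO livers, against -0.10 to 0.13 in WT livers, so these genes were shifted the same way on most KO arrays. For complex II genes the KO livers lay between -0.64 and -0.40, against -0.11 to 0.15 in WT livers. For complex III they lay between -0.68 and -0.34, against -0.23 to 0.21 in WT livers. For the subunits of complex IV the KO livers lay between -0.30 and 0.03, against -0.14 to 0.22 in WT livers, so that the genotypes overlapped. For its assembly factors they lay between -0.46 and -0.24, against -0.11 to 0.17 in WT livers. The poly-A spike level also differed between the genotypes. It was 5.67, 6.06 and 5.29 in KO males 18, 19 and 39 and 5.25, 5.26 and 5.10 in KO females 13, 40 and 69, against 6.40 to 6.81 in WT males and 5.98 to 6.15 in WT females. KO male 19 lay above WT females 25 and 27 (5.98 and 5.99). Among the KO livers, female 69 had the lowest level (5.10) and the widest shift (-0.50). KO male 19 had the highest level (6.06) and the smallest shift (-0.25), while KO male 18 departed from this order, with 5.67 and -0.39. A link between level and shift was not tested.

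**Figure D4:**
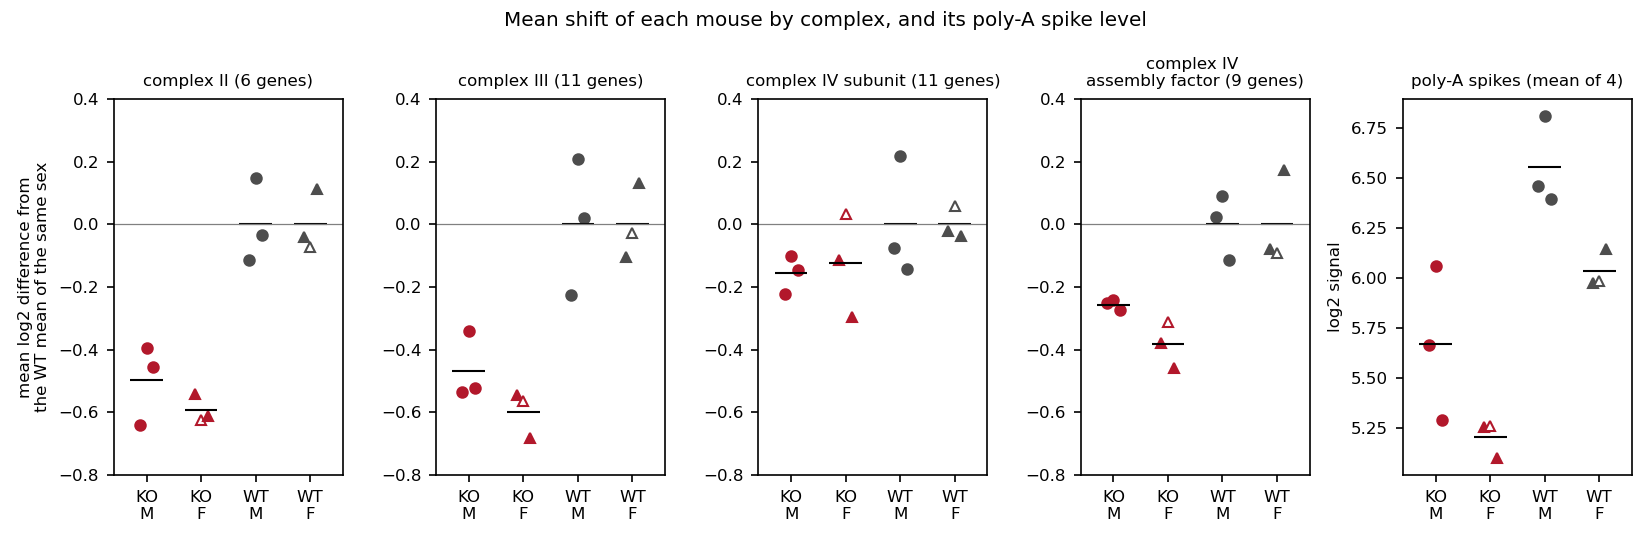
Mean log2 difference of each mouse from the WT mean of its sex over the genes of complex II, complex III, the complex IV subunits and the complex IV assembly factors (first 4 panels), and the mean log2 signal of the 4 poly-A spikes on the same arrays (last panel). Circles are males, triangles females, open symbols KO female 40 and WT female 27 and bars group means. The KO livers lie below every WT liver in complexes II and III and in the assembly factors, and overlap with them in the complex IV subunits.

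With the poly-A level as a covariate in the limma fit, none of the 37 genes was called (5 lower and 1 higher at an unadjusted p under 0.05), and 3 of all 65956 features were (0.00455 percent). The covariate differs by genotype and takes part of the same contrast, so the SE of each difference grew as well. Bcs1l then differed by -0.85 ± 0.22, Ttc19 by -0.67 ± 0.28, Cox15 by -0.96 ± 0.32 and Surf1 by -0.70 ± 0.29, against -0.78, -0.60, -1.19 and -0.78 without the covariate. Sdhc differed by -0.78 ± 0.46 and Sdhd by -0.76 ± 0.37. The core subunits of complex III came closer to 0, with Uqcrc1 at -0.11 ± 0.42, Uqcrc2 at -0.16 ± 0.18 and Cyc1 at -0.15 ± 0.35, and Uqcr10 changed sign at 0.07 ± 0.35. Cox7b remained positive at 0.42 ± 0.18. Of the 15 genes called without the covariate 13 kept their sign, and Uqcr10 and Cox18 did not.

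**Figure D5:**
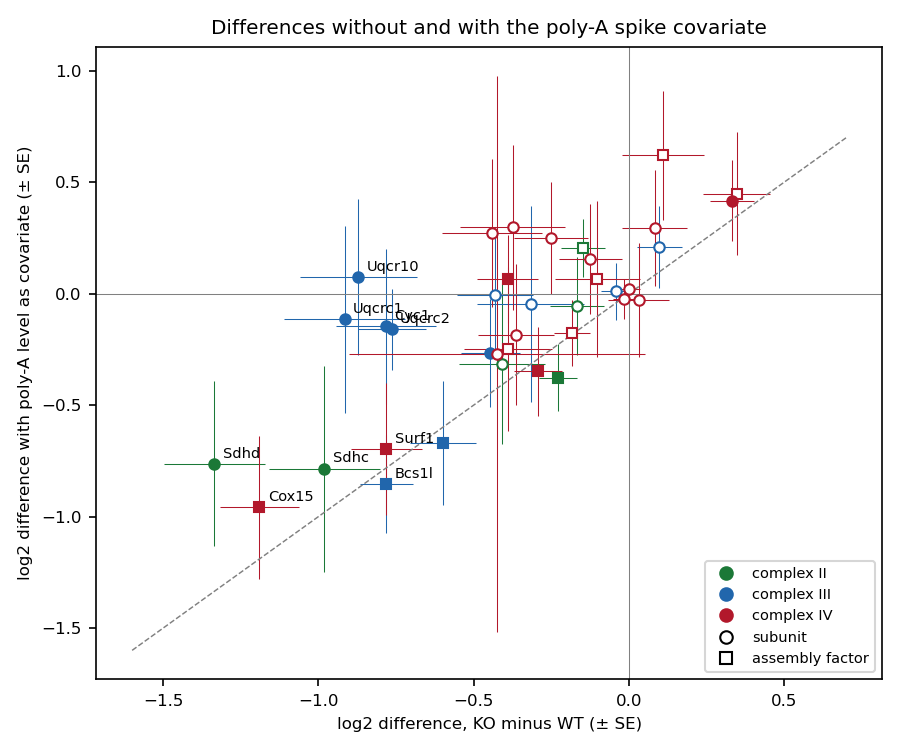
Log2 difference of KO minus WT without a covariate (x axis) and with that level fitted beside genotype (y axis, poly-A spikes) for the 37 genes, each with its SE. The dashed line marks equal values and filled symbols mark genes called without the covariate. Cox15, Surf1, Bcs1l and Ttc19 stay near the dashed line, Uqcrc1, Uqcrc2, Cyc1 and Uqcr10 lie near 0 on the y axis, and the vertical bars are longer than the horizontal ones.

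Over both sexes, every gene called in the neighbouring mitochondrial lists was lower in KO livers. Falls were also more frequent than rises among the bright protein-coding genes, with 29.8 percent lower and 6.87 percent higher. Among all features 4.47 percent were lower and 5.28 percent higher. Of 33 subunits of complex I, the entry point for electrons from NADH, 18 fell, with Ndufb5 (-0.44 ± 0.05, adjusted p = 0.000943), Ndufs8 (-1.41 ± 0.16, adjusted p = 0.000981) and Ndufs7 (-0.80 ± 0.12, adjusted p = 0.00267) having the smallest p-values. Of 18 genes of ATP synthase 9 fell, led by Atp5f1 (-0.49 ± 0.08, adjusted p = 0.00398), Atp5d (-0.94 ± 0.15, adjusted p = 0.00425) and Atp5j2 (-0.35 ± 0.06, adjusted p = 0.00666). Cycs, the cytochrome c that carries electrons between complexes III and IV, fell (-0.82 ± 0.15, adjusted p = 0.00901), and Hccs, which attaches its haem, did not pass the test (-0.05 ± 0.05, adjusted p = 0.633). Of 17 TCA cycle genes 10 fell, with Idh3b (-1.29 ± 0.14, adjusted p = 0.000990), Suclg2 (-0.71 ± 0.10, adjusted p = 0.00222) and Dlst (-0.94 ± 0.16, adjusted p = 0.00523) first. Of 15 genes for ubiquinone and its other electron donors 5 fell, first Coq3 (-1.09 ± 0.12, adjusted p = 0.000836), Coq5 (-1.59 ± 0.19, adjusted p = 0.00118) and Coq9 (-0.45 ± 0.06, adjusted p = 0.00216), which make ubiquinone. The median differences were -0.40 for complex I, -0.37 for ATP synthase, -0.56 for the TCA cycle and -0.31 for the ubiquinone list, and each list had 0 genes called with the poly-A covariate.

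Of 21 further assembly factors of complexes II to IV 6 fell, and the share for this and the next lists is again 29.8 percent lower among bright protein-coding genes. Taco1, which activates translation of a catalytic subunit of complex IV, averaged 6.89 ± 0.25 in KO and 7.87 ± 0.30 in WT livers (-0.98 ± 0.14, adjusted p = 0.00257). Coa3, which stabilises that subunit, averaged 7.82 ± 0.44 in KO and 8.76 ± 0.27 in WT livers (-0.94 ± 0.14, adjusted p = 0.00300), and Uqcc1, a complex III factor, differed by -0.32 ± 0.05, adjusted p = 0.00398. Of 8 further complex IV subunits, most of them forms restricted to other tissues, Cox6b2, the testis form, fell, within the negative control range on 9 of 12 arrays, with an average of 5.24 ± 0.24 in KO and 6.28 ± 0.29 in WT livers (-1.05 ± 0.15, adjusted p = 0.00256). In the same list Ndufa4, now counted as a complex IV subunit, differed by -0.48 ± 0.15, adjusted p = 0.0734, and Cox7b2 by -0.24 ± 0.08, adjusted p = 0.106. Cox6a2 and Cox8b, chosen after their values were seen, were highest in the same livers as Cox7a1, at 5.42 and 4.93 in KO female 40 and 5.26 and 5.59 in WT female 27. Cox6a2 and Cox8b lay within the negative control range on all 12 arrays, as did Cox7b2. Both livers had raised muscle markers, and WT female 27 also had Ucp1 at 11.78. Of 14 measured regulators of respiratory genes 3 fell, Esrrg (-0.37 ± 0.06, adjusted p = 0.00417, within the negative control range), Tfb1m (-0.51 ± 0.10, adjusted p = 0.0115) and Ppara (-1.62 ± 0.35, adjusted p = 0.0173). Of 16 genes of the outer membrane, import and inner membrane organisation 5 fell, first Immt (-0.71 ± 0.11, adjusted p = 0.00377), Chchd3 (-0.54 ± 0.09, adjusted p = 0.00483) and Timm50 (-0.29 ± 0.06, adjusted p = 0.0113). No gene of these mitochondrial lists was called higher by limma over both sexes, and at an unadjusted p under 0.05 1 further assembly factor and 2 regulators were higher. That factor, Higd1a, named after its values were seen, was called higher in females, at 0.46 (adjusted p = 0.0215), with 0.23 ± 0.07, adjusted p = 0.0591 over both sexes. Atp5j2 and Uqcc1 lay within the negative control range on all 12 arrays, and Timm50 on 9.

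Markers of other cells differed between the same livers. For comparison, 5.28 percent of all features and 6.87 percent of the bright protein-coding genes were called higher over both sexes. Of 14 macrophage markers 11 rose and 0 fell in the limma test (13 higher and 0 lower at an unadjusted p under 0.05). The log2 of their summed signal was 14.06 to 18.69 in KO livers, highest in KO female 40, against 11.91 to 13.58 in WT livers. Marco, a scavenger receptor of resident macrophages, averaged 13.37 ± 2.39 in KO and 7.11 ± 0.55 in WT livers (6.27 ± 0.73, adjusted p = 0.00122), Itgam differed by 1.82 ± 0.22, adjusted p = 0.00127 and C1qc by 2.49 ± 0.33, adjusted p = 0.00216. Of 11 neutrophil markers 8 rose, and the log2 of their summed signal was 9.76 to 16.95 in KO livers, against 7.76 to 8.69 in WT livers. S100a8 differed by 8.30 ± 1.02, adjusted p = 0.00155, S100a9 by 7.73 ± 1.03, adjusted p = 0.00206 and Retnlg by 4.58 ± 0.81, adjusted p = 0.00685. None of the 19 hepatocyte markers was called by limma or had an unadjusted p under 0.05. Of these, 13 lay at the ceiling on every array and so could show no difference, which leaves the amount of hepatocyte RNA largely unmeasured. Of the markers not at the ceiling on every array, Hnf4a differed by -0.46 ± 0.31, adjusted p = 0.417. Pck1 differed by 0.11 ± 0.10, adjusted p = 0.562, and Serpina1a by -0.04 ± 0.05, adjusted p = 0.692. Tat differed by 0.04, Apoc3 by -0.03 and G6pc by -0.08, so the signs were mixed. The lists for lymphocytes (8 measured), skeletal muscle (13) and erythroid cells (7) had no called gene, with 2, 0 and 3 genes at an unadjusted p under 0.05. Of 7 fat markers Elovl3, which liver also makes, fell (-3.10 ± 0.66, adjusted p = 0.0163). The part of these cells, and of the poly-A difference, in the lower signals of complexes II, III and IV was not tested.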

How the data were processed

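The deposited table holds log2 signals of 12 arrays, 1 per liver. The Transcriptome Analysis Console is the tool that the submitters' processing notes name. Its version, the background correction, the normalization and the build were not given in the sources used here. Of 72688 features, 6732 controls were kept out of all tests. Of the 65956 others 31216 carry 1 gene symbol in the platform annotation, 1534 several and 33206 none, and only features with 1 symbol were named. Where a gene has several features, the brightest is used.

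A model of 4 group means (genotype by sex) was fitted to all 65956 features by lmFit and eBayes of limma 3.58.1 (R 4.3.3, 8 residual degrees of freedom), for KO minus WT over both sexes, within each sex, and their difference. P-values were adjusted by Benjamini-Hochberg over all features, with a threshold of 0.05. A value at or below the 95th percentile of the negative controls of its array (6.20 to 6.83) was called within the negative control range, and bright means a mean above 6.50, the mean of those percentiles. For array measures, genotype was permuted exactly inside each sex. The fit was checked on simulated data.

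Genes were given in full if they passed any of these tests or had the highest or lowest mean of their complex, and of every other list up to 3 with the smallest p are named. Members and lists were chosen with earlier results of these data known. The limma p-values set each difference against the spread between mice within groups and treat the mice as independent. Nothing in the labels says whether mice share a litter or array batch. Alternatives were quantile normalization, median centring, no sex term, a filter on dim features, eBayes with trend and robust, the poly-A covariate, a 1.5-fold minimum, the mean of a gene's features, each mouse left out, and KO male 19 with WT female 38 left out, as in an earlier treatment of these data. Leaving out KO female 40 and WT female 27 was chosen after seeing the data. Promoter windows came from RefSeq (GRCm38.p6), matched by symbol for 28 of 37 genes.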

Additional observations from a re-analysis of the deposited data

Results flagged for a closer look

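In 11 instances over 8 genes a single liver lay apart from the other 5 of its genotype, by a gap of more than 0.625 of the range of all 6 values. Chance alone gives about 1 in 20 of the 74 gene and genotype combinations examined. KO female 40 was highest for Cox5a at 12.12 (the other KO livers 11.28 to 11.53), for Cox7a1 at 6.76 (4.80 to 5.41) and for Cox17 at 5.85 (5.19 to 5.42). WT female 27 was highest for Cox7a1 at 8.30 (the other WT livers 4.83 to 5.75). These are the livers with raised skeletal muscle markers. KO female 40 also had the highest summed macrophage markers (log2 18.69), and WT female 27 had the brown fat marker Ucp1 at 11.78. For Cox5a and Cox17 WT female 27 did not stand apart, at 11.49 and 5.34. The part of other tissue or cells in their values was not tested. KO male 19 was highest for Cox18 at 5.71 (5.25 to 5.42), and WT male 23 for Cox8a at 14.83 (13.86 to 14.21). The others concern genes whose deposited value was the same on most arrays, so that any other value stood apart. These were Uqcrb in KO female 69 at 15.35 and in WT female 38 at 15.59, Cox6c in WT male 17 at 5.64, and Cox7c in KO female 13 at 6.52 and in WT male 17 at 6.49.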

How the results depend on the processing

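With all 12 mice 6432 features were called, 14 of the 37 genes were lower and 1 was higher. Quantile normalization gave 19 lower and 2 higher, with 3 lower complex IV subunits, 5 lower in males and 2 higher in females. Median centring gave 17 lower, with 1 complex IV subunit, 3 lower in males, and 11 lower and 0 higher in females. The filter on dim features gave 2 higher, 1 lower complex IV subunit, 2 lower assembly factors of complex IV, 7 lower in males and 11 in females. Without the sex term, and with trend and robust settings, 0 were higher. A 1.5-fold minimum left 3661 features, 0 higher genes and 2 assembly factors of complex IV. With the poly-A covariate 3 features and 0 genes were called, 0 in complex II, 0 in complex III and 0 among the assembly factors of complex IV. Without KO male 19 and WT female 38, 0 were higher. Without KO female 40 and WT female 27, 0 were higher, 0 were lower in males, and 3 were lower and 0 higher in females. The mean of a gene's features changed no call among the 37 genes, because each had 1 feature.

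Leaving out each mouse in turn gave 4553 to 6599 called features, 11 to 14 lower genes, 1 to 2 higher, 2 to 3 in complex II, 7 to 8 in complex III and 2 to 4 assembly factors of complex IV. It gave 0 to 3 lower in males, 4 to 7 lower in females and 0 to 1 higher in females. Sdhaf2, Cox18 and Sco1 account for the lost calls over both sexes. Uqcrc1 and Cyc1 in females were lost in 6 of 12 such fits each, Cox7b in females in 4, Surf1 in females in 2 and Bcs1l in males in 7.

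Signs turned with the poly-A covariate for Sdhaf1 (0.21), Uqcrb (0.01), Uqcr10 (0.0749), Cox4i1 (0.16), Cox5b (0.30), Cox6a1 (0.25), Cox6b1 (-0.0281), Cox8a (0.27), Cox17 (0.0655) and Cox18 (0.066), with quantile normalization for Cox6b1 (-0.42) and Cox7c (-0.0533), and with centring for Cox6b1 (-0.0372) and Cox7c (-0.0675). Cox5a turned without KO female 40 and WT female 27 (-0.0116). Leaving out 1 mouse, Cox5a ranged from -0.0216 to 0.15, Cox6b1 from -0.0225 to 0.11, Cox7a1 from -0.70 to 0.0326 and Cox7c from -0.0071 to 0.008. The causes were not tested. No paired analysis was possible because no animal number is shared between groups. Signal over background limits the 7 genes within the negative control range in all 4 groups (Sdhaf1, Sdhaf2, Cox6c, Cox17, Cox18, Cox19 and Sco1).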
